A study of Mus musculus with 12 samples.

Results

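The mitochondrial genome of the mouse carries 37 genes, and all 37 were among the 45808 rows of the deposited expression table, where their symbols begin with mt-. They were taken by that prefix alone and fall into 13 messenger RNA genes, 2 ribosomal RNA genes and 22 transfer RNA genes. Their RNA was measured by sequencing of RNA from the distal ileum, the last stretch of the small intestine, of BALB/c mice, an inbred strain. The sources describe that RNA as polyadenylated, and how far the libraries were limited to it was not tested. A control group given phosphate-buffered saline (PBS) held 6 libraries, and a group treated with Porphyromonas gingivalis, an oral bacterium linked to gum disease, held 6. Strain and tissue were labelled the same in both groups. Route, dose and duration of treatment, the age of the mice and whether each library came from its own mouse are not given in the labels, so p-values measure only the spread between these samples, which may be technical. The title of the series asks about P. gingivalis and intestinal inflammation. Libraries are called PBS 1 to 6 and P. gingivalis 1 to 6, after the numbers in their titles.

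Mitochondrial DNA is a small circle that lies in many copies in each mitochondrion. Both of its strands are transcribed by a dedicated polymerase into long precursors, from which the transfer RNAs are cut out, so that the messenger and ribosomal RNAs lying between them are released. The messenger RNAs code for subunits of the respiratory chain and of the ATP synthase, and they are translated on mitochondrial ribosomes built around the 2 ribosomal RNAs. Enterocytes, the absorptive cells of the gut lining, hold many mitochondria.

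By the GENCODE M21 annotation of build GRCm38, 28 of the genes lie on the plus strand of the mitochondrial chromosome and 9 on the minus strand. Of the 36 pairs of neighbours, 21 have no gap between them or overlap, and the largest gap is 32 bases. The messenger RNA of mt-Co3, mt-Nd4 and mt-Cytb (784, 1378 and 1144 bases) ends with the first base of its stop codon. Their last 28 bases are printed from the GENCODE M21 transcripts to show this, with that final base in capitals, at chrM:9363-9390, chrM:11517-11544 and chrM:15261-15288, all on the plus strand. The rest of such a codon is known to be supplied by the A tail.
mt-Co3 end: tacgtctccatttattgatgaggatctT
mt-Nd4 end: ccaaaactaattacaggcctgacaataT
mt-Cytb end: gaagacaaaatactaaaattatatccaT

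The nuclear genome holds a near-exact copy of one stretch of mitochondrial DNA, which includes several of these genes. On chromosome 1, from 24611535 to 24616197 on the minus strand, 7 annotated unprocessed pseudogenes follow each other in the order of the mitochondrial genes. They match the mitochondrial chromosome from 6394 to 11042, a stretch of 4649 bases that runs from the last part of mt-Co1 into mt-Nd4. The pseudogene was identical to mt-Co2 over 681 bases (Gm28661), to mt-Atp6 over 678 (Gm10925), to mt-Co3 over 783 (Gm28437), to mt-Nd4l over 294 (Gm10222) and to the start of mt-Nd4 over 876 (Gm28439). Where the pair differs at all is shown in the sequences that follow, with differing bases in capitals and positions counted from 1 at the first base of the mitochondrial gene. Gm28438 differs from mt-Nd3 by T3C alone over 345 bases, within the start codon. Gm29216 differs from mt-Co1 by T1056A, C1057T, A1059G, A1060G, C1062A and A1066T at the edge of the copy, and is then identical over 479 bases. The stretches lie at chrM:9459-9518 for mt-Nd3, at chr1:24613060-24613119 on the minus strand for Gm28438, at chrM:6381-6440 for mt-Co1 and at chr1:24616138-24616197 on the minus strand for Gm29216.
mt-Nd3: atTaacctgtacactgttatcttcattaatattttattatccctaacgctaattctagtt
Gm28438: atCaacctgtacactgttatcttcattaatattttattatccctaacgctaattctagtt
mt-Co1: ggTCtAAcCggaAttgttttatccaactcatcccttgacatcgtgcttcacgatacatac
Gm29216: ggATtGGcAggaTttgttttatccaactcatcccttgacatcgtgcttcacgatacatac

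A read of 50 bases that fell within mt-Co2 could not be told from nuclear copies by its sequence at any of its start positions, since 100% of the 50-base windows of mt-Co2 were also present in a nuclear transcript. The share was 99.9% for mt-Co3, 99.5% for mt-Atp6, 98.8% for mt-Nd4l and 98.0% for mt-Nd3. It was 62.2% for mt-Nd4 and 51.1% for mt-Co1, which also shares windows with Gm13340 on chromosome 2. It was 8.19% for mt-Nd2, 7.61% for mt-Nd5 and 1.04% for mt-Rnr2, and 0% for mt-Rnr1, mt-Nd1, mt-Nd6 and mt-Cytb. With windows of 100 bases it was 60.8% for mt-Nd4, 30.8% for mt-Co1, 3.19% for mt-Nd2 and 0% for mt-Nd5 and mt-Rnr2. For mt-Co2, mt-Co3, mt-Atp6, mt-Nd4l and mt-Nd3 it stayed at 97.6% or more. Only annotated transcripts were compared, so the value of 0% for mt-Atp8 covers no unannotated sequence: in the nuclear run a gap of 233 bases lies between Gm10925 and Gm28661, where the mitochondrial chromosome has 230 bases holding mt-Tk and mt-Atp8. The sources do not state how reads that match both places were counted, and the levels of genes in this stretch are therefore uncertain.

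The mean levels of the messenger RNA genes differed by position along the mitochondrial map. The 6 messenger RNA genes inside the copied stretch (mt-Co2, mt-Atp8, mt-Atp6, mt-Co3, mt-Nd3 and mt-Nd4l) averaged 0.574 to 191 normalized counts per kb of gene length, where a normalized count is a read count divided by the authors' size factor for the library. The 5 outside it (mt-Nd1, mt-Nd2, mt-Nd5, mt-Nd6 and mt-Cytb) averaged 335 to 10235 per kb, with no overlap between these ranges of means. Single libraries did overlap: mt-Nd6 fell as low as 92.0 per kb, while mt-Co2 reached 295 and mt-Co3 287. The 2 that lie partly in it, mt-Nd4 and mt-Co1, averaged 2180 and 57465 per kb. The 6 inside genes together gave 0.260% of the messenger RNA counts of the 13 genes. What part the treatment of reads with several matches had in these levels was not tested.

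**Figure D1:**
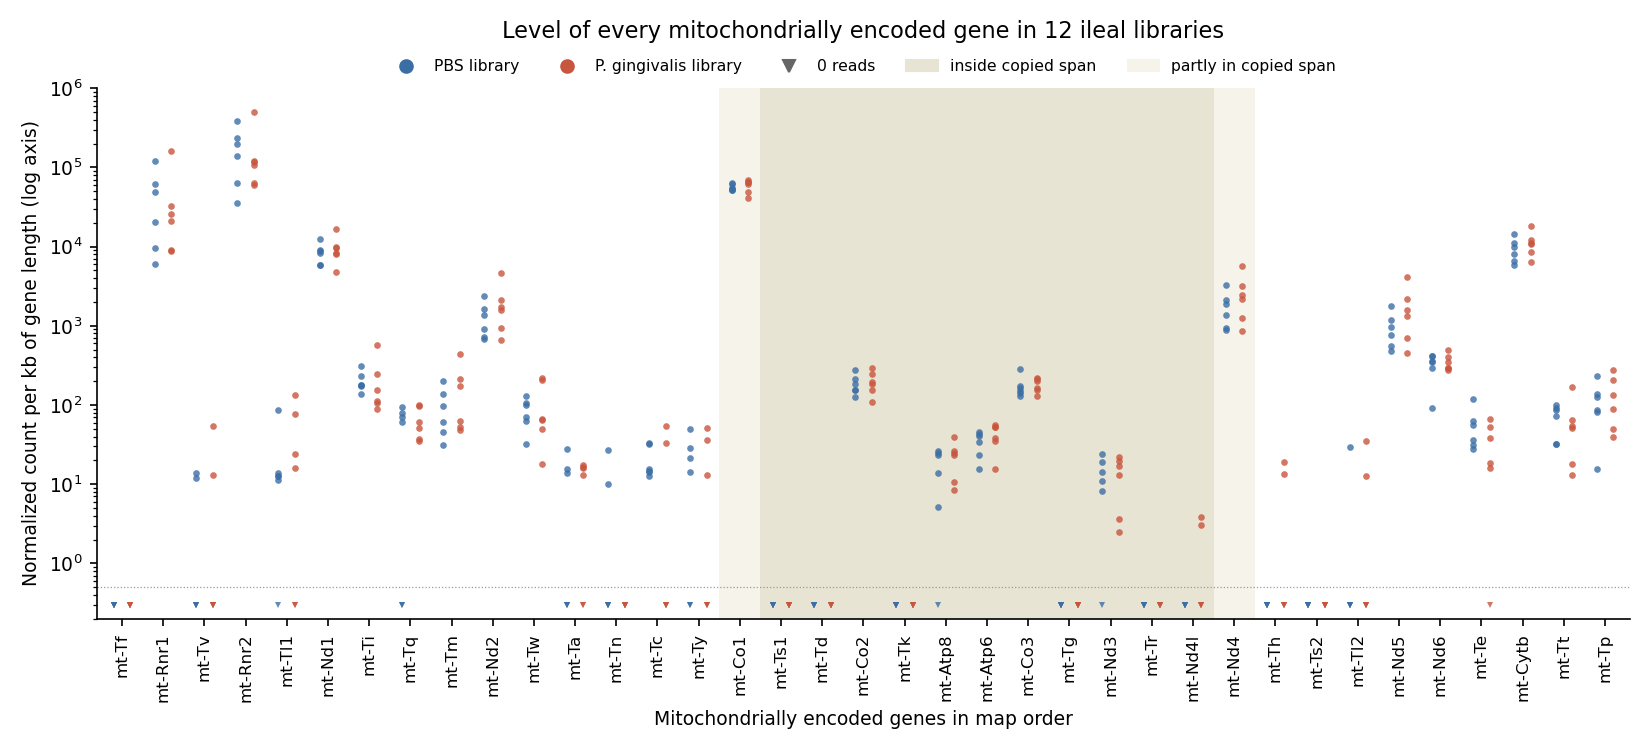
Normalized count per kb of gene length (log axis) of each of the 37 genes in map order, with 1 point per library, PBS in blue and P. gingivalis in red; triangles at the bottom mark libraries with 0 reads, and shading marks genes inside or partly in the stretch that is copied on chromosome 1. Messenger RNA genes inside that stretch reach at most 191 per kb on average, against at least 335 for those outside it. The 2 shaded genes only partly in it, mt-Nd4 and mt-Co1, average 2180 and 57465.

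The nuclear copies themselves had counts. For mt-Co3, the subunit III gene of cytochrome c oxidase, the gene and its copy Gm28437 had almost the same level, with a ratio of the means of 0.993, copy to gene, and 0.828 to 1.21 in single libraries. The copy of mt-Co2, subunit II of the same enzyme, stood at 0.339 of its gene. The copy of mt-Atp6, a subunit of the proton channel of ATP synthase, averaged 33.5 against 25.7 for its gene, and that of mt-Nd3, a small subunit of complex I, had 4.48 times the count of its gene. By contrast Gm29216 had 0.00149 of the count of mt-Co1 and Gm28439 had 0.00154 of that of mt-Nd4. The first 60 bases of mt-Co3, at chrM:8607-8666 on the plus strand, show a stretch that both places hold unchanged.
mt-Co3: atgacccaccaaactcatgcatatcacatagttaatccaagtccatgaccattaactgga

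Among the 13 members whose average over all libraries reached 10 normalized counts, the level set for testing, mt-Rnr2, the large ribosomal RNA (16S), had the highest level per kb, at 169132 on average, followed by mt-Co1 at 57465, mt-Rnr1, the small ribosomal RNA (12S), at 43716, mt-Cytb at 10235 and mt-Nd1 at 8961. The order then ran from mt-Nd4 at 2180 through mt-Nd2 at 1626 and mt-Nd5 at 1338 to mt-Nd6 at 335, mt-Ti at 208, mt-Co2 at 191, mt-Co3 at 177 and mt-Atp6 at 37.7. Several neighbours in this order changed places between libraries. The level of mt-Rnr2 was above that of mt-Co1 in 11 of 12 libraries, mt-Co1 above mt-Rnr1 in 9, mt-Cytb above mt-Nd1 in 10, mt-Nd2 above mt-Nd5 in 11, mt-Nd6 above mt-Ti in 10, and mt-Ti above mt-Co2 and mt-Co2 above mt-Co3 in 7 each. The other 5 steps held in all 12 libraries.

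The libraries held 6553306 to 10378841 reads. Fabp6, the ileal bile acid binding protein and a defining marker of ileal enterocytes, was near 0 in PBS 6 (4.32 normalized counts), P. gingivalis 1 (2.52) and P. gingivalis 5 (16), against 11246 to 69383 in the other 9 libraries. In PBS 6, P. gingivalis 1 and P. gingivalis 5 the 6 markers of proximal small intestine summed to 116270, 133290 and 167828, against 946 to 41010 in the others. The sum of 946 was that of P. gingivalis 6, and every other library had at least 9417. Whether any of these libraries came from a different position along the gut was not tested. P. gingivalis 6 had the lowest sum over 10 enterocyte markers (92742, against 107064 to 199463) and the highest over 8 smooth muscle markers (31372, against 9102 to 24863). The 8 fat cell markers summed to 2294 to 11013 in PBS and 450 to 3670 after P. gingivalis, and all 8 had lower means there, with 8 at an unadjusted limma p under 0.05 and 0 called. In bulk tissue, fewer cells of a type and less RNA per cell cannot be told apart.

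The ribosomal RNAs varied most. They made up 39.4% (PBS 3) to 85.2% (P. gingivalis 1) of the mitochondrial reads, and less than the messenger RNAs in PBS 3 and P. gingivalis 3 (47.8%). Their share of all reads in the library was lowest in PBS 3, at 0.836%, and highest in P. gingivalis 1, at 10.9%, with PBS 6 next at 8.26%. In PBS it had a median of 3.78%, and after P. gingivalis a median of 2.37%. Apart from P. gingivalis 1, the P. gingivalis libraries lay between 1.38% and 2.58%, within the range of the PBS libraries. All Wilson 95% intervals of these shares were at most 0.05 percentage points wide, which covers counting error only. The 13 messenger RNA genes together took a much steadier share, 1.40% ± 0.0978 in PBS and 1.49% ± 0.235 after P. gingivalis (SD, n = 6 each). Of their 1405409 reads 1077669 came from mt-Co1, so this share mostly follows that gene. The normalized counts of mt-Co1 had a 1.69-fold range, the smallest of the 13 members tested, against 9.17-fold for mt-Nd5. The 22 transfer RNA genes had 661 reads over the 12 libraries, against 3570207 for the ribosomal and 1405409 for the messenger RNAs. Rn7sk, a noncoding RNA made by RNA polymerase III, averaged 127685 normalized counts in PBS and 107063 after P. gingivalis. What part library preparation had in the reads of each class was not tested.

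**Figure D2:**
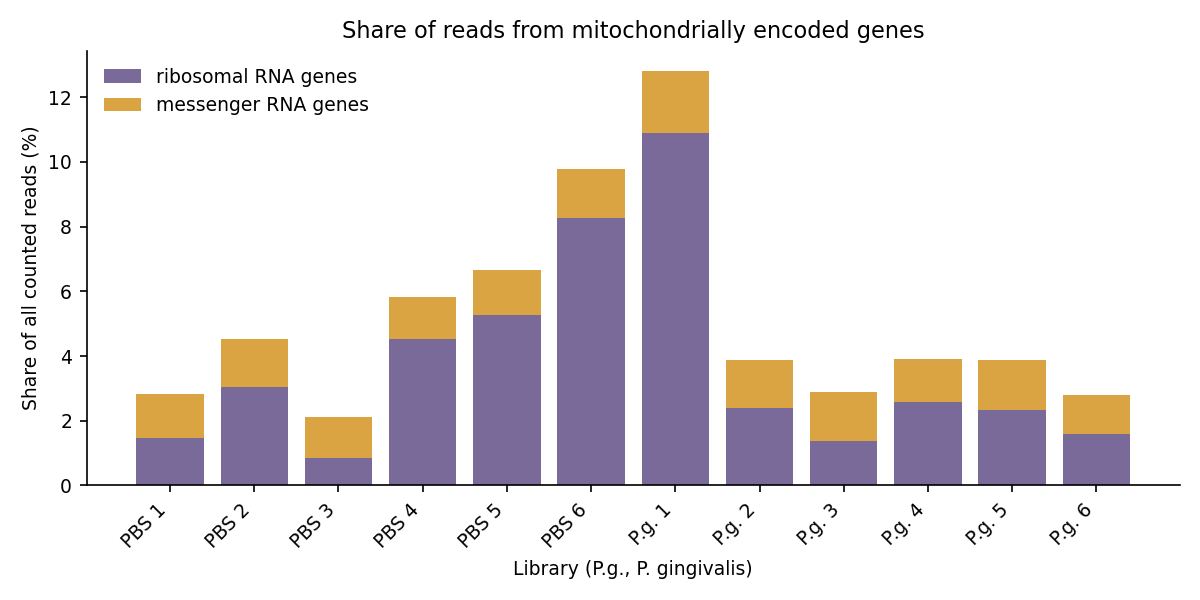
Share of all counted reads (%) in each of the 12 libraries that came from the ribosomal RNA genes (purple) and the messenger RNA genes (yellow), stacked; transfer RNA genes are too few to draw. P. gingivalis 1 and PBS 6 stand highest, with ribosomal RNA shares of 10.9% and 8.26%, while the yellow parts stay between 1.20% and 1.90%.

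For mt-Rnr1 the normalized counts in PBS ran from 5716 through a median of 32823 to 116666, and after P. gingivalis from 8484 through 22463 to 152133. For mt-Rnr2 they ran from 56139 through 268569 to 617245 in PBS, and from 94120 through 177856 to 789835 after P. gingivalis. For both genes PBS 3 was the lowest library and P. gingivalis 1 the highest, PBS 6 came second, and the groups overlapped. Differences are given as the P. gingivalis mean less the PBS mean of log2(normalized count + 1). The value was -0.14 (SE 0.80) for mt-Rnr1 and -0.17 (SE 0.75) for mt-Rnr2, with a limma adjusted p of 0.996 for each. The 95% interval of mt-Rnr2 reached from -1.77 to 1.43, so that changes of more than 2-fold either way lie within it. The standard deviation over the 12 libraries on the log2 scale was 1.53 for mt-Rnr1, a 26.6-fold range, and 1.15 for mt-Rnr2, a 14.1-fold range. Of the 15025 genes tested, 99.1% had a smaller standard deviation than mt-Rnr1, and the median gene had 0.26. The highest libraries, P. gingivalis 1 and PBS 6, were both among the 3 low in Fabp6, while P. gingivalis 5, also low in Fabp6, had 184681 for mt-Rnr2, close to its group's median. The part of these tissue markers in the spread was not tested.

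mt-Co1 codes for the catalytic subunit I of cytochrome c oxidase and was the messenger RNA with the highest level per kb. Its normalized counts ran from 79520 through a median of 84363 to 97422 in PBS, and from 62958 through 98733 to 106305 after P. gingivalis. P. gingivalis 6 was the lowest library and P. gingivalis 1 the highest, so the P. gingivalis group enclosed the PBS group. Its range of 1.69-fold and standard deviation of 0.22 on the log2 scale were the smallest among the 13 members tested, and 38.0% of tested genes had a smaller one. The log2 difference was 0.04 (SE 0.32, limma adjusted p = 0.996). This SE was above the gene's own standard deviation of 0.22, because limma draws each gene's variance towards a trend over genes of like level. It therefore does not measure the spread of mt-Co1 alone.

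mt-Cytb, the cytochrome b of complex III, ran from 6636 through 10304 to 16276 in PBS and from 7273 through 12386 to 20833 after P. gingivalis, and the means differed by 0.26 on the log2 scale (SE 0.27). The other highly expressed messenger RNA outside the copied stretch, mt-Nd1, a membrane subunit of complex I, ran from 5542 through 8139 to 12056 and from 4556 through 8671 to 15808, a difference of 0.15 (SE 0.27). For both genes P. gingivalis 1 was highest and PBS 6 second, and the groups overlapped (limma adjusted p = 0.992 for each).

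The genes for the larger proton-pumping subunits of complex I, mt-Nd2, mt-Nd4 and mt-Nd5, had the largest positive differences among the 13 members tested with all 12 libraries. mt-Nd5 ran from 873 through 1587 to 3215 normalized counts in PBS and from 818 through 2637 to 7497 after P. gingivalis. Its lowest and highest libraries, P. gingivalis 6 and P. gingivalis 1, belonged to the same group, and the difference was 0.64 (SE 0.47, 95% interval -0.38 to 1.65, limma adjusted p = 0.992). mt-Nd4 ran from 1210 through 2237 to 4517 and from 1189 through 3183 to 7936, a difference of 0.47 (SE 0.43). mt-Nd2 ran from 709 through 1180 to 2495 and from 691 through 1733 to 4876, a difference of 0.48 (SE 0.43). The same 2 libraries set the ends of both ranges, and neither gene passed (limma adjusted p = 0.992 for each). Without P. gingivalis 1 the difference of mt-Nd5 was 0.31, that of mt-Nd4 0.19 and that of mt-Nd2 0.17, beside 0.20 for mt-Nd6. Without P. gingivalis 6 that of mt-Nd5 was 0.95, with an unadjusted limma p of 0.0370 and an adjusted limma p of 0.563. Without the 3 libraries low in Fabp6 it was 0.26, beside 0.33 for mt-Nd6.

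mt-Nd6, another complex I subunit, is the only messenger RNA gene on the minus strand, and its last 14 bases overlap those of mt-Nd5. Its normalized counts ran from 47.7 through a median of 182 to 216 in PBS and from 143 through 166 to 257 after P. gingivalis. PBS 2 stood far below the other PBS libraries, which began at 153, and the highest library was P. gingivalis 4, not P. gingivalis 1. The difference was 0.25 (SE 0.31, limma adjusted p = 0.992), and without PBS 2 it was -0.08. The sources do not state whether counting used the strand, so reads of the overlap cannot be placed.

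The remaining messenger RNA genes lie in the copied stretch and had few reads. mt-Co2 ran from 86.5 through 117 to 189 normalized counts in PBS and from 73.9 through 129 to 202 after P. gingivalis, and differed by 0.07 (SE 0.23). mt-Co3 ran from 102 through 123 to 225 and from 101 through 144 to 171, a difference of 0.08 (SE 0.19), with PBS 2 the highest library. mt-Atp6 ran from 10.7 through 25.5 to 31.3 and from 10.4 through 30.8 to 37.8, a difference of 0.26 (SE 0.33). The groups overlapped for all 3 (limma adjusted p between 0.992 and 0.995). mt-Atp8, the other ATP synthase gene, averaged 3.86, mt-Nd3 averaged 4.48 and mt-Nd4l averaged 0.171, so these 3 lay under the mean of 10 needed for the test. mt-Nd4l had 2 reads in all, both after P. gingivalis.

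Of the 22 transfer RNA genes only mt-Ti, for isoleucine, reached a mean of 10. Its normalized counts ran from 9.47 through 12.5 to 21.6 in PBS and from 6.09 through 9.22 to 39.1 after P. gingivalis, and the difference was -0.19 (SE 0.38, limma adjusted p = 0.992). P. gingivalis 1 was again the highest library and P. gingivalis 6 the lowest. The difference was -0.52 without P. gingivalis 1, -0.02 without P. gingivalis 6 and -0.60 without the 3 libraries low in Fabp6, the last with an unadjusted limma p of 0.0431 and an adjusted limma p of 0.9995. Another 14 transfer RNA genes had reads but means between 0.180 and 9, and 7 had no read in any library. A count of 0 in a single library allows up to 3 expected reads there, and 0 in all 12 libraries allows fewer per library. All 5 transfer RNA genes inside the copied stretch were among the 7, against 2 of the 17 outside it. No 50-base window of those 5 was present in an annotated nuclear transcript, which covers no unannotated sequence. What part the nuclear copy had in their counts was not tested. Sequences of 5 genes, chosen after their values were seen, are printed with the anticodon in capitals: the 3 with the highest means, mt-Ti (chrM:3706-3774), mt-Tm for methionine (chrM:3845-3913) and mt-Tp for proline (chrM:15356-15422, minus strand), and 2 with no reads from the copied stretch, mt-Tk for lysine (chrM:7700-7764) and mt-Tg for glycine (chrM:9391-9458).
mt-Ti: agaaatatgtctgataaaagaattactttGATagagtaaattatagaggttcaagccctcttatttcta
mt-Tm: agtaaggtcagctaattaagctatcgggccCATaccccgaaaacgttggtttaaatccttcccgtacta
mt-Tp: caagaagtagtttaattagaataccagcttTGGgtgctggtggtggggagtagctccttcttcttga
mt-Tk: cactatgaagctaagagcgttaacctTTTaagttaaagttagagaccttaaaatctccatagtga
mt-Tg: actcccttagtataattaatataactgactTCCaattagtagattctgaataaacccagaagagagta
mt-Ti directly follows mt-Nd1 on the map and its first 2 annotated bases, like those of several neighbours, belong to both genes. Reads that run from a messenger RNA into a transfer RNA cannot be told apart here from reads of a free transfer RNA.

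Across the members, limma called 0 of 13 at an adjusted p of 0.05, and 0 of 13 had an unadjusted p under 0.05. Over all 15025 genes tested, 0 genes (0%) were called and 560 (3.73%) had an unadjusted p under 0.05. With edgeR on the recovered reads 0 of 14907 genes (0%) were called, and 542 (3.64%) had an unadjusted p under 0.05. With DESeq2 there were 31 calls among 20877 genes (0.148%), and 703 of 27211 (2.58%) had an unadjusted p under 0.05. No member was called by either. The groups overlapped for each of the 13 members tested, while 25 of all genes tested (0.166%) had no overlap. All 10 messenger RNAs tested had a positive difference, with a median of 0.25, against 48.9% of all tested genes and a median of -0.0039, and both ribosomal RNAs and mt-Ti had a negative one. Without P. gingivalis 1, 7 of the 13 members had a positive difference in place of 10. All 8 fat cell markers, all 8 smooth muscle markers and all 5 tested mesothelium markers had lower mean log2 values after P. gingivalis (median differences -4.64, -0.52 and -1.27). So did all 6 ileal enterocyte markers (-0.89). All 7 B cell markers (0.69) and all 3 tested T cell markers (0.59) had higher ones. The other marker lists went both ways. No marker was called, and their part in the members' differences was not tested.

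**Figure D3:**
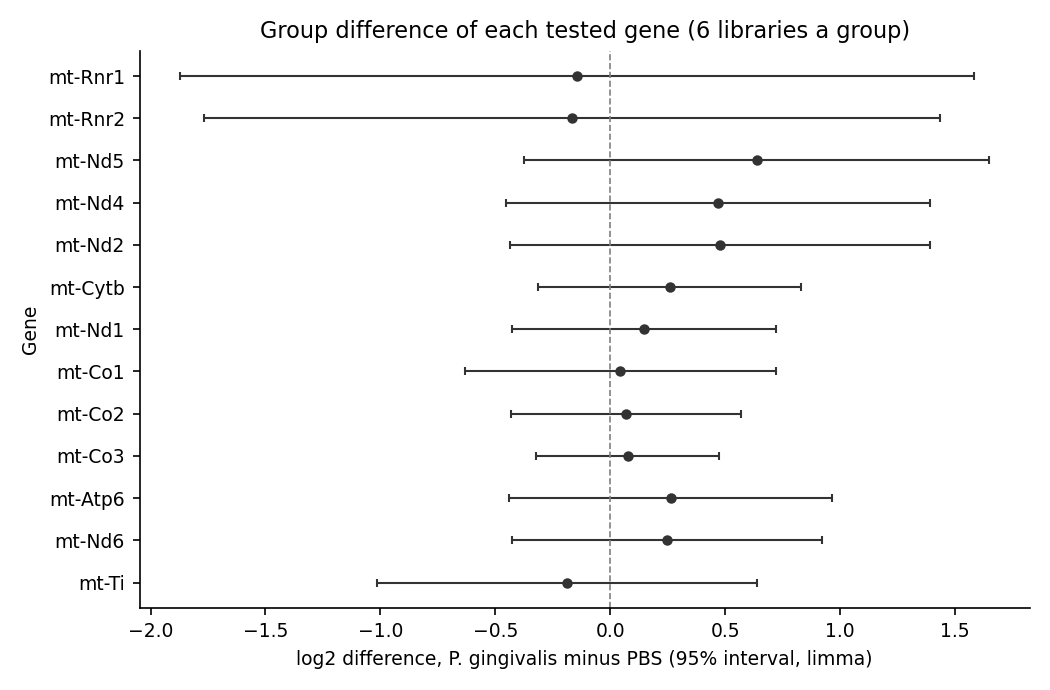
Difference of each of the 13 tested genes on the log2(normalized count + 1) scale, P. gingivalis minus PBS, with 6 libraries a group; points are limma estimates and bars their 95% intervals. Every bar crosses 0, and the widest belong to mt-Rnr1 and mt-Rnr2. Bar widths use variances that limma draws towards its trend over all tested genes.

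Most of the variation lay between libraries and not between the groups. P. gingivalis 1 was the highest library for 11 of the 13 members, and P. gingivalis 6 the lowest for 9. PBS 6 was among the 2 highest for 7. Across the 12 libraries mt-Nd2, mt-Nd4 and mt-Nd5 had Pearson correlations of 0.99 with each other on the log2 scale, and 0.92 to 0.98 with mt-Cytb and mt-Nd1. These values describe the 12 libraries, which also share depth and scaling.

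**Figure D4:**
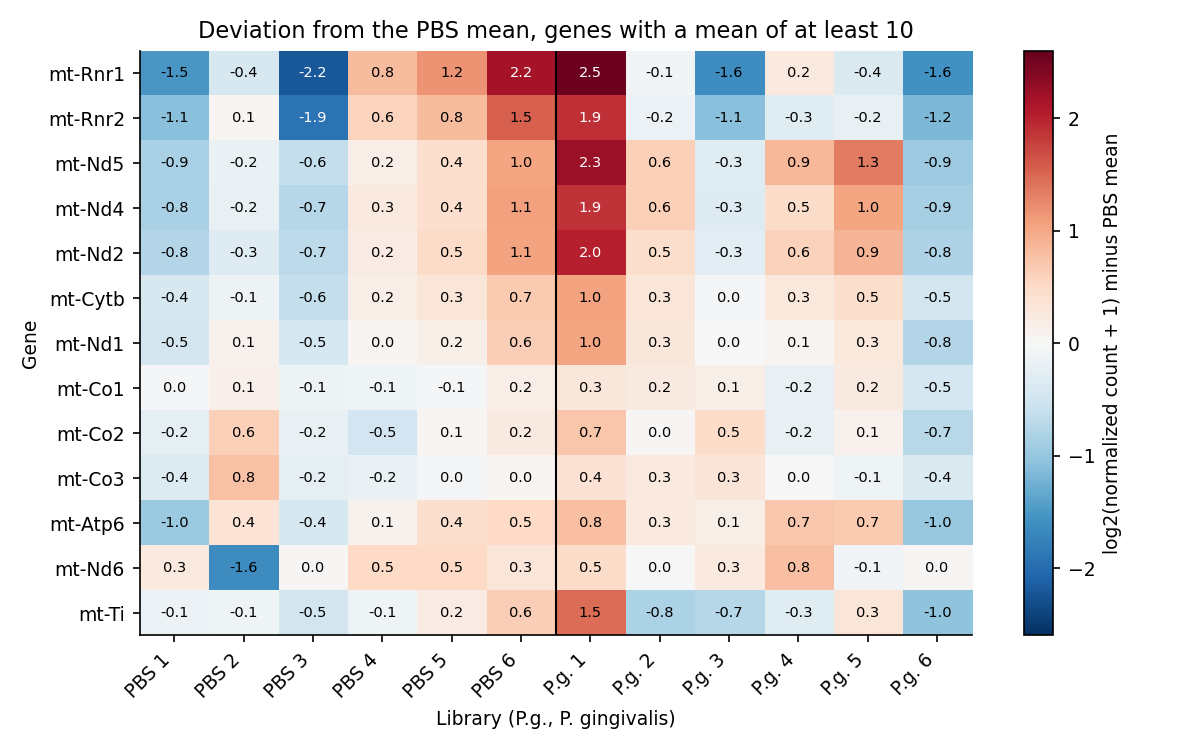
Deviation of each of the 13 tested genes from its PBS mean, in log2(normalized count + 1), in each of the 12 libraries; red is above and blue below the PBS mean, and the black line parts PBS from P. gingivalis. P. gingivalis 1 is red throughout, with 2.54 for mt-Rnr1 and 0.30 for mt-Co1, while mt-Nd6 in PBS 2 stands at -1.63.

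Of 4 relations between members across the 12 libraries, that of mt-Rnr1 and mt-Rnr2 was the closest, with Pearson's r = 0.983 (permutation p = 1e-05, the smallest the permutations can give, adjusted 4e-05 over the 4) and Spearman's rho = 0.916 (permutation p = 5e-05, adjusted 0.0002). Without the 2 libraries farthest from the median, PBS 6 and P. gingivalis 1, r was 0.963, and within PBS and P. gingivalis it was 0.986 and 0.980. For mt-Co1 and mt-Nd4 r was 0.647 (permutation p = 0.0224, adjusted 0.0448) and rho 0.699 (permutation p = 0.0144, adjusted 0.0287). It was 0.678 without P. gingivalis 4 and 6, 0.461 within PBS and 0.734 within P. gingivalis, but 0.374 without the 3 libraries low in Fabp6 (permutation p = 0.324). The relation also missed the threshold without P. gingivalis 1 (r = 0.561, permutation p = 0.0715) and without P. gingivalis 6 (r = 0.557, permutation p = 0.0771). For mt-Rnr2 and mt-Co1 r was 0.488 (permutation p = 0.108, adjusted 0.144) and rho 0.552 (permutation p = 0.0660, adjusted 0.0880), with r of 0.310 without PBS 3 and P. gingivalis 1, 0.523 within PBS and 0.576 within P. gingivalis. For mt-Nd6 and mt-Nd5, neighbours on opposite strands, r was 0.272 (permutation p = 0.399, adjusted 0.399) and rho 0.217 (permutation p = 0.499, adjusted 0.499). It was 0.263 without PBS 2 and P. gingivalis 4, 0.235 within PBS and 0.327 within P. gingivalis.

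Ratios of members do not depend on how libraries were scaled to each other. The ratio of mt-Rnr1 to mt-Rnr2 ran from 0.0885 through a median of 0.124 to 0.189 in PBS and from 0.0852 through 0.120 to 0.193 after P. gingivalis. The difference of the mean log2 ratio was 0.02 (two-sided exact permutation p = 0.929 over 924 labelings). The small ribosomal RNA thus made up a larger part in some libraries of each group, among them PBS 6, P. gingivalis 1 and P. gingivalis 4.

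The ratio of mt-Rnr2 to mt-Co1 ran from 0.706 through 3.14 to 6.34 in PBS and from 1.04 through 1.84 to 7.43 after P. gingivalis, a 10.5-fold range. P. gingivalis 1 stood at 7.43 and the other 5 libraries of its group at 1.04 to 2.25. The log2 difference was -0.21 (exact permutation p = 0.734). The ratio of mt-Nd6 to mt-Nd5 ran from 0.0341 through 0.111 to 0.205 in PBS and from 0.0281 through 0.0760 to 0.188 after P. gingivalis, and the log2 difference was -0.39 (exact permutation p = 0.515). It was lowest in P. gingivalis 1 and PBS 2. All 3 adjusted p-values over the 3 ratios were 0.929 (exact permutation), and the smallest p this design allows is 0.00216.

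**Figure D5:**
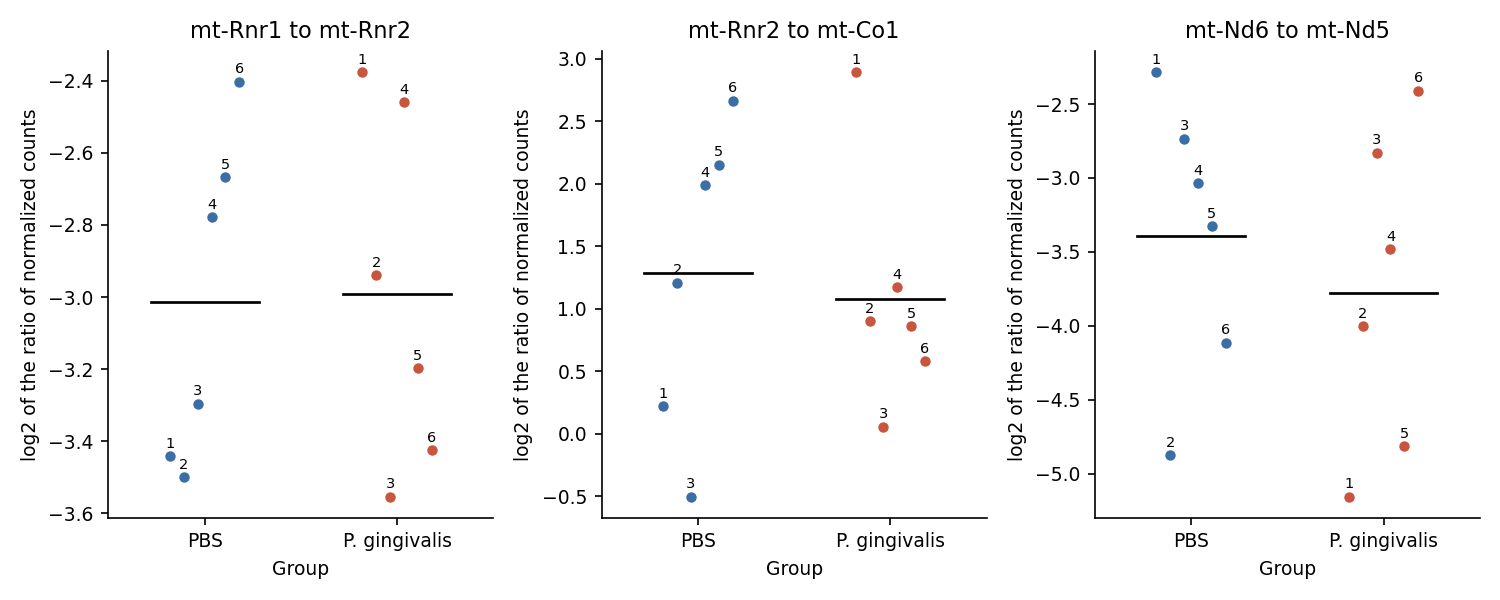
log2 of the ratio of normalized counts in each library, by group, for 3 pairs of members; points carry the library's number and black lines are group means. In each panel the 2 groups overlap, and the mean differences of 0.02, -0.21 and -0.39 are smaller than the spread between libraries.

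Nuclear genes make, process and translate the mitochondrial RNAs. Of 111 such genes in 5 lists, 110 were tested, limma called 0, and 2 (1.82%) had an unadjusted p under 0.05, against 3.73% of all genes tested. Of the 110, 76 (69.1%) had a positive difference and the median was 0.04, against 48.9% and -0.0039 over all genes tested. The same 48.9% is the background of the counts per list that follow. All these genes were measured in the same 12 libraries, so their signs are not separate events. The lists were chosen with earlier results of these data known.

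Among 20 tested genes of transcription and DNA maintenance, 15 had a positive difference. Polrmt, the mitochondrial RNA polymerase, averaged 156 ± 18.3 in PBS and 167 ± 19.0 after P. gingivalis (SD, n = 6 each), and its cofactors Tfam and Tfb2m averaged 338 ± 31.1 and 359 ± 27.7, and 110 ± 23.4 and 106 ± 8.61. The smallest p-values of the list belonged to Dna2, a nuclease and helicase, with a difference of 0.22 (SE 0.14), Polg, the DNA polymerase gamma, with 0.17 (SE 0.11), and Tfb1m, a methyltransferase of the small ribosomal RNA, with 0.16 (SE 0.13).

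Of 41 genes of RNA processing, modification and decay, 27 had a positive difference. Pnpt1, the polynucleotide phosphorylase of mitochondria, averaged 288 ± 19.1 and 325 ± 24.4, a difference of 0.17 (SE 0.08, limma adjusted p = 0.992). Ptcd2, a pentatricopeptide repeat protein, differed by 0.16 (SE 0.08) and Trnt1, which adds the CCA end to transfer RNAs, by -0.22 (SE 0.12). Lrpprc and Slirp, which together stabilise the messenger RNAs, differed by 0.04 (SE 0.09) and -0.12 (SE 0.14). The difference was 0.06 (SE 0.08) both for Mtpap, the mitochondrial poly(A) polymerase, and for Elac2, which cuts the 3′ end of transfer RNAs.

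Of 23 mitochondrial aminoacyl-tRNA synthetases, 15 had a positive difference, with Mars2 and Vars2, which charge the transfer RNAs for methionine and valine, at 0.22 (SE 0.10) and 0.16 (SE 0.09). Of 14 translation factors 8 were positive. Gfm1, an elongation factor, differed by 0.18 (SE 0.10), Oxa1l, which inserts new proteins into the inner membrane, by -0.10 (SE 0.09) and Mtif2, an initiation factor, by 0.08 (SE 0.08). Of 12 regulators of mitochondrial gene programmes 11 were positive, among them Ppard, a nuclear receptor, at 0.37 (SE 0.23), the coactivators Pprc1 at 0.31 (SE 0.19) and Ppargc1a at 0.37 (SE 0.31), and Yy1, a transcription factor, at 0.12 (SE 0.09). The limma adjusted p of each gene named here was 0.992 or above.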

How the data were processed

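The deposited values are a normalized signal: read counts per gene, scaled by the authors with a size factor for each library, as read from the file's name and values. Build GRCm38 (mm10) and the tools HISAT2, FastQC, DESeq2 and Cufflinks are named in the submitters' processing notes. Tool versions, the way of counting, the strand setting and the annotation used are not given in the sources. Per the labels' protocols, libraries came from an Illumina TruSeq kit. Values were whole multiples of 1 step per library, which gave whole reads for 100% of values above 0 within 0.001 reads.

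The test was limma (version 3.58.1, R 4.3.3) with its variance trend, applied to log2(normalized count + 1) of the 15025 genes with a mean of at least 10, two-sided, with Benjamini-Hochberg adjustment over all of them at 0.05. The scale understates differences of weakly expressed genes. edgeR 4.0.16 and DESeq2 1.42.0 were run on the recovered reads. Ratios were tested by exact permutation and relations with 100000 permutations (scipy 1.17.1). Scripts were tested on simulated data. No 2 libraries were copies of each other (smallest chi-square per degree of freedom 7.12). Shared sequence was found by exact windows of 50 and 100 bases against GENCODE M21 transcripts and by alignment (Biopython 1.88). Sequences are those of the reference genome, not of BALB/c.

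Members and lists were chosen with earlier results of these data known. The rule names every messenger and ribosomal RNA gene, transfer RNA genes with a mean of at least 10, and, of each nuclear list, the 3 genes with the smallest p plus Polrmt, Tfam, Tfb2m, Lrpprc, Slirp, Mtpap, Elac2 and Ppargc1a. One gene that the rule names is not reported here. Alternatives were other pseudocounts, filters, scalings and tools, sample weights, a replicate block and left-out libraries. Adding the nuclear copy to its member was chosen after seeing the data.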

Additional observations from a re-analysis of the deposited data

Results flagged for a closer look

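In 8 of 36 groups of 6 values, 1 library stood farther from its group than Dixon's criterion allows. The criterion was applied to normalized counts, ratios and shares of reads without taking log2. Its rate of about 1 in 20 groups holds for normally distributed values, and whether these values are so distributed was not tested. The number of groups past the criterion on the log2 scale was not tested either, so the 8 are not compared with that rate. The values share libraries and vary together, so they are not 8 separate events.

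P. gingivalis 1 accounted for 6 of them, each at the high end. It had 152133 normalized counts of mt-Rnr1 against 8484 to 31069 in the rest of its group, 789835 of mt-Rnr2 against 94120 to 190146, 4876 of mt-Nd2 against 691 to 2223 and 39.1 of mt-Ti against 6.09 to 17.1. Its ratio of mt-Rnr2 to mt-Co1 was 7.43 against 1.04 to 2.25, and its ribosomal RNA share was 10.9% of reads against 1.38% to 2.58%. The same library had the lowest Fabp6 count, 2.52, and the part of that difference in tissue markers was not tested.

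PBS 2 accounted for the other 2. It had 225 normalized counts of mt-Co3 against 102 to 136 in the other 5 PBS libraries, and 47.7 of mt-Nd6 against 153 to 216.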

How the results depend on the processing

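No member and no nuclear machinery gene was called in any alternative run. Of 323 recomputed member differences 304 kept their sign and 19 reversed it, and the lowest adjusted p was 0.563 (limma). With all genes, where limma called 0, a pseudocount of 5 gave 1 call, sample weights 20, DESeq2 31 and leaving out the 3 libraries low in Fabp6 1. Leaving out 1 library gave 0 to 53 calls, with 53 without P. gingivalis 6 and 7 without PBS 5.

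Sample weights turned mt-Rnr1 to 0.0029. For mt-Ti edgeR gave 0.021 and DESeq2 0.042. Without the 3 libraries low in Fabp6, mt-Co1 was -0.033, mt-Co2 -0.055, the mt-Nd6 to mt-Nd5 log2 ratio 0.070 (exact permutation p = 0.937), and r of mt-Co1 and mt-Nd4 0.374, no longer past the threshold (permutation p = 0.324). That r was 0.463 with libraries scaled to all other genes, where it missed the threshold too (permutation p = 0.130). The cause was not tested. Leaving out 1 library at a time, differences ran from -0.68 to 0.29 for mt-Rnr1, -0.58 to 0.14 for mt-Rnr2, -0.030 to 0.33 for mt-Nd1, -0.0067 to 0.14 for mt-Co1, -0.059 to 0.23 for mt-Co2, -0.079 to 0.35 for mt-Nd6, 0.07 to 0.51 for mt-Atp6, 0.0022 to 0.23 for mt-Co3, 0.10 to 0.41 for mt-Cytb, 0.17 to 0.73 for mt-Nd2, 0.19 to 0.74 for mt-Nd4, 0.31 to 0.95 for mt-Nd5 and -0.52 to -0.02 for mt-Ti. The log2 ratio differences ran from -0.10 to 0.14 for mt-Rnr1 to mt-Rnr2, from -0.57 to 0.064 for mt-Rnr2 to mt-Co1 and from -0.68 to -0.11 for mt-Nd6 to mt-Nd5, and r of mt-Co1 and mt-Nd4 from 0.557 to 0.711.

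The labels number both groups 1 to 6, but same-numbered libraries deviated from their group means with correlations of only -0.54 to 0.08, and 0 of 6 pairs were each other's best match. With the number as a replicate block 0 members and 0 genes were called. Of the transfer RNA genes, all but mt-Ti lay under the mean of 10, as did mt-Atp8, mt-Nd3 and mt-Nd4l, and the limma test left them out. Without that filter limma tested 30 members and called 0, and DESeq2 gave 24 an adjusted p and called 0.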

Other observations

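The nuclear copies of the mitochondrial stretch also differed between libraries. Gm28437, the copy of mt-Co3, had 259 normalized counts in PBS 2 against 83.5 to 175 in the other 11 libraries, and PBS 2 was also the highest library for mt-Co3, at 225. That library had the highest values of 3 noncoding RNAs made by RNA polymerase III, Rn7sk (193048), Rmrp (37709) and Rpph1 (17309), and the lowest mt-Nd6. The lowest Rn7sk value of any library was 90298, in P. gingivalis 5. How far the libraries were limited to polyadenylated RNA was not tested. Gm28439, the copy of the start of mt-Nd4, had 16.4 in P. gingivalis 1, where mt-Nd4 was also highest, and 0 in PBS 1. Across the 12 libraries the copy and its gene had a correlation of 0.910 for mt-Co3, 0.865 for mt-Atp6, 0.837 for mt-Co2, 0.796 for mt-Nd4 and mt-Co1, 0.110 for mt-Nd3 and 0.033 for mt-Nd4l. Some of these rest on low counts: mt-Nd4l had 2 reads in all, and mt-Nd3 and Gm28439 averaged 4.48 and 4.64 normalized counts. Each pair shares sequence and libraries. Rn18s-rs5, an 18S ribosomal RNA gene of the nucleus, had 360204 in P. gingivalis 4 and 56116 in P. gingivalis 2 against 64.4 to 443 in the other 10. The mt-Rnr2 counts of these libraries were 171031 and 190146.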
